A study of Sus scrofa with 12 samples.

Results

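Ribosomal protein genes encode the protein parts of the cell's 2 kinds of ribosome, and their array signals in the pig left ventricle are described here across a pacing experiment. The signals are RMA values, that is, background-corrected, quantile-normalized summaries of each probe set on the log2 scale. The members are all genes whose symbol in the platform annotation starts with RPL, RPS, MRPL or MRPS followed by a number, with the RPS6K kinases left out. They number 94 of the 12362 genes with a symbol on the array: 41 of the cytosolic ribosome (24 large-subunit and 17 small-subunit symbols) and 53 of the mitochondrial ribosome (33 large-subunit and 20 small-subunit symbols). Where a gene had several probe sets, the probe set with the highest mean over all arrays stands for it. The class follows the symbol alone. RPS19BP1 came in by its symbol and is a binding protein of RPS19, not a ribosomal protein, RPS27A is made as a fusion with ubiquitin, and MRPS18A and MRPS30 sit in the large subunit of the mammalian mitochondrial ribosome in spite of their symbols.

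The cytosolic ribosome translates nuclear messenger RNAs in every cell, and in the heart an increase of ribosome number is a classical step of hypertrophic growth. Most cytosolic ribosomal protein messengers share a control of translation through mTOR and LARP1. The mitochondrial ribosome is built from nuclear-encoded MRPL and MRPS proteins imported into the organelle, and it makes the few respiratory-chain subunits encoded in mitochondrial DNA, on which the beating heart muscle depends.

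The series holds 12 arrays of total RNA from the left ventricle of female pigs aged 13 months, killed 6 months after surgery. Paced pigs had an atrioventricular block made with an ablation catheter and a pacemaker in VDD mode, in which the ventricle is paced after each sensed atrial beat; control pigs had a sham operation, and the labels place a lead on the right ventricular septum and one in the right atrial appendage in all pigs. Tissue came from the septum and from the left ventricular free wall at the papillary muscle level, with 3 arrays for each of 4 groups: septum paced, septum control, free wall paced and free wall control. The study enrolled 12 pigs, 6 per treatment, but no label ties an array to a pig, so p-values here measure only the spread between these arrays.

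All 9 cardiomyocyte markers on the array (MYH7 and MYL2 among them) read above the 99th percentile of probe set means, and the erythroid markers HBB and ALAS2 read below the limit for testing. Array 2 of the paced free wall was unlike the others. On the first principal component it scored -45.3, against -19.2 to 22.3 for the other 11 arrays, and it gave the highest signal of the 12 for 18.2% and the lowest for 17.4% of all probe sets tested. Some class medians and single-gene differences that moved by over 1.5 times without it are given both ways below. A value given in 1 way only is not thereby shown to hold without that array. On the second component free wall control array 1 and septum control array 1 scored 27.2 and 24.3, against -16.3 to 7.76 for the other 10 arrays, and these 2 arrays had the lowest fibroblast marker means, -0.66 and -0.55. The fibroblast marker genes averaged 0.08 ± 0.13 in septum paced arrays and -0.19 ± 0.43 in septum control arrays, and 0.20 ± 0.09 in free wall paced arrays and -0.08 ± 0.51 in free wall control arrays (log2 deviation from each gene's 12-array mean, 7 genes; SD, n = 3). Their part in the results below was not tested. In whole tissue, fewer cells of a type and less RNA per cell cannot be told apart.

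Cytosolic ribosomal protein genes read at high and steady signals. Of the 41, 40 passed the filter on low signal (a 12-array mean of at least 3.0 on the log2 scale, which left out the lowest 25% of probe sets). Their means had a median of 8.36 and ran between 3.02 and 11.74, with 22 of 40 above 8 and 6 below 5, while the median over all 20668 probe sets tested was 5.03 and 8.80% of them lay above 8. Signals of different probe sets depend on their probes, so these figures describe the signal each probe set gave and do not rank transcripts.

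Among small-subunit genes, RPS12 averaged 11.74 (range over 12 arrays 11.56 to 11.80). RPS3, which lies at the entry of the messenger channel, averaged 10.98 (10.83 to 11.15), and RPS10 averaged 10.90 (10.75 to 11.02). These genes spanned little more than 0.3 log2 units over all treatments and regions. Among large-subunit genes, RPL4, whose protein loop lines the exit tunnel, averaged 11.11. Its signal was 11.12, 11.17 and 11.14 in septum paced arrays and 11.06, 11.11 and 11.07 in septum control arrays, then 11.10, 11.17 and 11.15 in free wall paced arrays and 11.08, 11.03 and 11.10 in free wall control arrays. The within-group SD of RPL4, 0.0314, was the smallest of the 93 tested members.

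At the other end, RPL22, a paralogue-bearing large-subunit protein, averaged 3.02 (2.68 to 3.38) and RPL27A averaged 3.76. RPS6, the small-subunit protein phosphorylated downstream of mTOR, was the only member below the limit. Its probe set read 1.64 to 2.65 over the 12 arrays with a mean of 2.13, so it was not tested. RPL3L, the paralogue of RPL3 found in striated muscle, and RPL22L1, RPS19, MRPL12 and MRPS12 had no probe set of their own with a single symbol and were not analysed here.

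**Figure D1:**
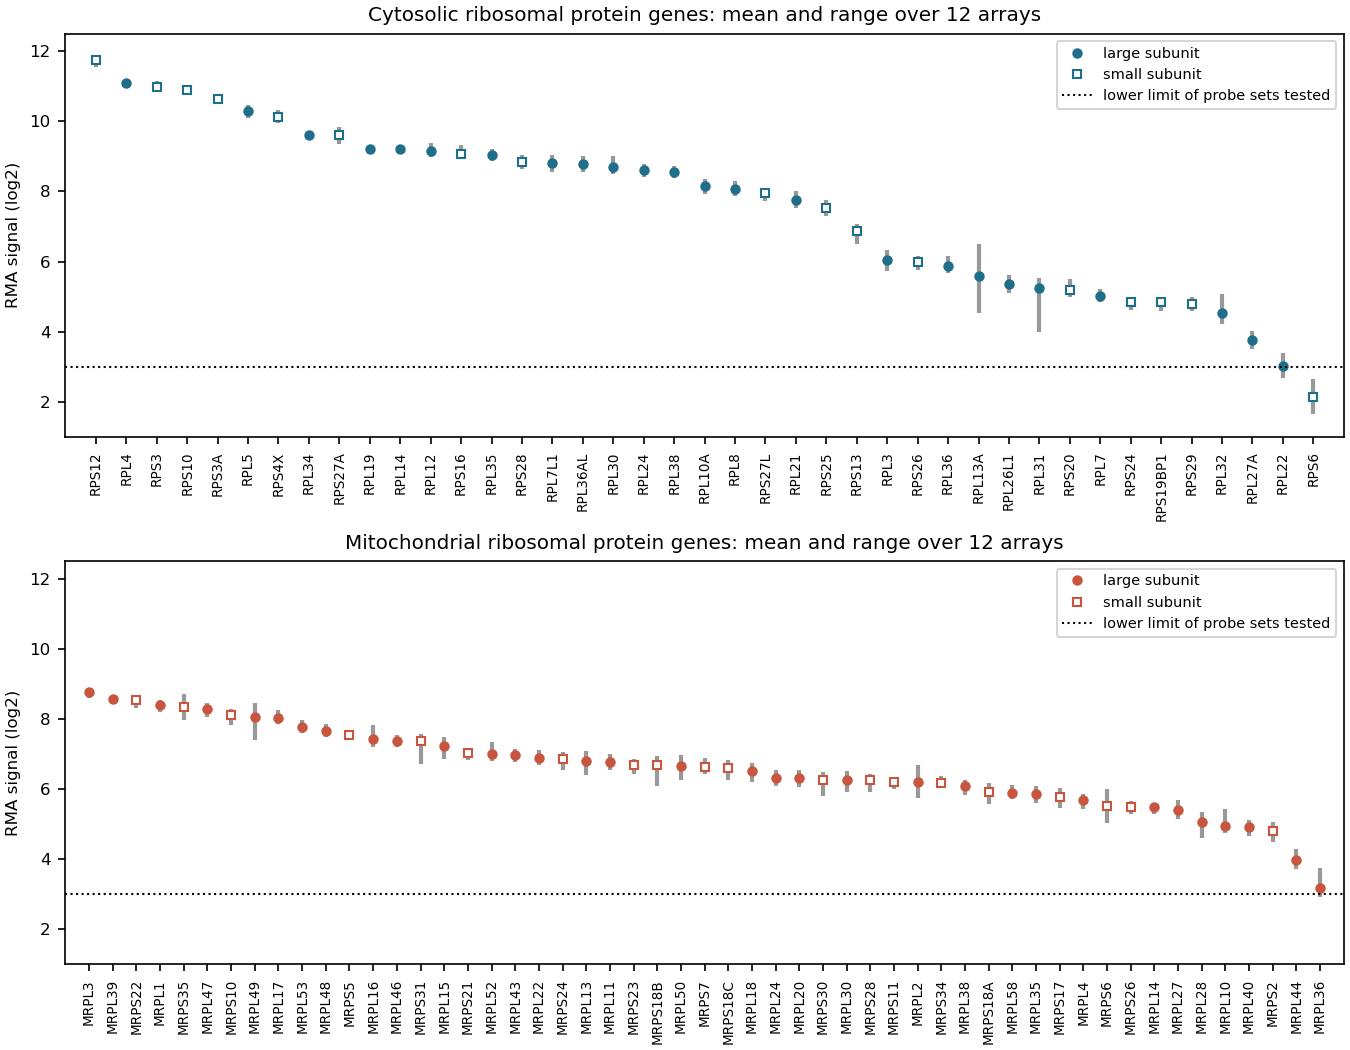
Mean RMA signal (log2) of each cytosolic (top, 41 genes) and mitochondrial (bottom, 53 genes) ribosomal protein gene, with a grey bar for the range over 12 arrays and the dotted line at the lower limit for testing. Most bars are short beside the spread between probe sets, and those of RPL13A and RPL31 are the longest.

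Mitochondrial ribosomal protein genes filled a narrower band. All 53 passed the filter, with means between 3.19 and 8.78 and a median of 6.62. Of these, 9 lay above 8 and 5 below 5. The large-subunit genes MRPL3, MRPL39 and MRPL1 averaged 8.78, 8.58 and 8.41, and the small-subunit gene MRPS22 averaged 8.53 (8.31 to 8.70). The lowest means were those of MRPL36, at 3.19 near the limit for testing, and of MRPL44, at 3.98.

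Replicates lay close together in both classes. The median within-group SD was 0.0997 for cytosolic genes and 0.135 for mitochondrial genes, against 0.205 over all probe sets tested. The median range over all 12 arrays was 0.395 and 0.48 log2 units, against 0.70 over all probe sets. The classes also read at higher signals than most probe sets, and the part of signal level in these spreads was not tested.

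A few members spread more. RPL13A, a large-subunit protein also known in human cells from the GAIT complex that silences translation, had a within-group SD of 0.60. It read 5.92, 5.51 and 6.04 in septum paced arrays and 5.29, 5.43 and 5.87 in septum control arrays, then 4.54, 6.49 and 5.68 in free wall paced arrays and 5.05, 5.08 and 6.03 in free wall control arrays. Both the lowest and the highest value of the 12 came from the free wall of paced pigs. RPL31, a protein near the exit tunnel, read 5.53, 4.0 and 5.27 in free wall paced arrays and 5.37, 5.31 and 5.38 in free wall control arrays. The value of 4.0 came from free wall paced array 2, and the other 11 arrays lay between 5.02 and 5.53. The pacing difference of RPL31 in the free wall was -0.42 (SE 0.30), and 0.047 without that array. MRPS6 and MRPL49 had the widest within-group spread among mitochondrial members, with SDs of 0.398 and 0.357.

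Pacing in the free wall was compared over 3 paced and 3 control arrays, which shows whether ribosomal protein signals differ in the wall away from the lead. No member passed the test (limma, Benjamini-Hochberg adjusted p under 0.05 over all 20668 probe sets, which called 0.00484% of them). Cytosolic genes were above 0 for 25 of 40 and below for 13, with a median log2 difference of 0.025 that leaving out 1 array moved between 0.0033 and 0.06. Mitochondrial genes had 21 of 53 above 0, 31 below 0 and a median of -0.04, against 0 over all probe sets tested. Without free wall paced array 2 the mitochondrial median was 0.02, with 27 above and 26 below, and 2 in place of 4 were lower at an unadjusted p under 0.05.

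The members with the smallest p in the free wall were lower in paced pigs. MRPS18A read 5.75, 5.74 and 5.59 in free wall paced arrays and 5.95, 6.11 and 6.17 in free wall control arrays. Every paced array lay below every control array. The difference was -0.38 (SE 0.12, limma adjusted p = 0.998). RPL36, a large-subunit protein, read 5.75, 5.79 and 5.67 in free wall paced arrays and 5.93, 6.15 and 6.08 in free wall control arrays. Here too the groups did not overlap, and the difference was -0.32 (SE 0.11). MRPL15 and MRPS18B each had a difference of -0.30 (SE 0.13), and without free wall paced array 2 these were -0.20 and -0.16.

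In the free wall no member was higher in paced pigs at an unadjusted p under 0.05, against 1.96% of all probe sets, while 1 cytosolic and 4 mitochondrial genes were lower, against 2.59%. The groups did not overlap for 2 cytosolic and 1 mitochondrial gene on the higher side, against 3.63% of all probe sets, and for 1 cytosolic and 7 mitochondrial genes on the lower side, against 4.52%. The higher ones were RPL10A, RPL24 and MRPL1, with RPL24 named after its values were seen. Of the 7 mitochondrial genes on the lower side, 4 carry small-subunit symbols: MRPS18A, MRPS18B, MRPS21 and MRPS31. Over the 20 small-subunit symbols the median difference was -0.07, with 6 above and 14 below 0, and without free wall paced array 2 it was -0.04, with 9 above and 11 below. Over the 33 large-subunit symbols it was -0.02, with 15 above and 17 below 0, and 0.025 without that array, with 18 above and 15 below. The macrophage and monocyte markers also stood lower in the free wall of paced pigs, with 7 of 8 genes below 0. Their mean deviations were -0.35 to -0.01 in free wall paced arrays, the lowest in array 2, and 0.10 to 0.23 in free wall control arrays. Above 0 lay 7 of 7 fibroblast, 5 of 5 smooth muscle and pericyte, and 7 of 9 cardiomyocyte genes. So did 2 of 5 endothelial, 2 of 5 lymphocyte, 2 of 2 adipocyte and 1 of 4 atrial genes. The part of the marker genes in these counts was not tested.

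Pacing in the septum, the wall that carries the ventricular lead, was compared in the same way. These counts of signs were not tested against those of the free wall, and the difference between the pacing effects is given below. Again no member was called, against 0.00968% of all probe sets (limma, adjusted p under 0.05). Cytosolic genes were above 0 for 31 of 40 and below for 9, with a median log2 difference of 0.065, while the median over all probe sets was -0.0033. Mitochondrial genes were above 0 for 24 of 53 and below for 27, with a median of -0.0033. The cytosolic count moved between 26 and 34 over the alternatives tried, and the median was 0.025 without septum control array 1 and 0.04 without septum paced array 2. The mitochondrial genes above 0 numbered 17 with array 2 of that paced group left out and 31 with its array 3 left out, so no direction can be given for them.

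RPL10A, a protein of the mobile L1 stalk, was among the genes above 0. It read 8.31, 8.28 and 8.21 in septum paced arrays and 7.96, 8.04 and 8.19 in septum control arrays, so the groups did not overlap. RPS25, a small-subunit protein used in initiation at internal ribosome entry sites, read 7.72, 7.76 and 7.71 in septum paced arrays and 7.51, 7.42 and 7.53 in septum control arrays. The paced arrays were the 3 highest of all 12 for RPS25. The differences were 0.20 (SE 0.11) for RPL10A and 0.24 (SE 0.10, limma adjusted p = 0.992) for RPS25.

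Among mitochondrial genes, MRPL2, a large-subunit protein near the peptidyl transferase centre, read 6.70, 6.57 and 6.33 in septum paced arrays and 6.05, 6.03 and 6.33 in septum control arrays. The lowest paced value equalled the highest control value, and the difference was 0.40 (SE 0.17). MRPL58, a peptidyl-tRNA hydrolase built into the large subunit that frees stalled ribosomes, read 6.13, 6.11 and 5.96 in septum paced arrays and 5.90, 5.81 and 5.73 in septum control arrays. The groups did not overlap, and the difference was 0.25 (SE 0.10).

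In all, 1 cytosolic and 2 mitochondrial genes had an unadjusted p under 0.05 and were higher in the septum of paced pigs, against 2.33% of all probe sets, and none was lower, against 2.32%. The groups did not overlap for 9 of 40 cytosolic genes on the higher side, a larger share than the 5.76% of all probe sets, and for 2 of 53 mitochondrial genes, a share near it. On the lower side there was no cytosolic gene and 1 mitochondrial gene, MRPS31, against 4.78%. The 9 cytosolic genes held 6 of the large subunit, among them RPL4, RPL5, RPL10A and RPL12, and 3 of the small subunit, RPS10, RPS25 and RPS29. Genes of a class share the same arrays, so these counts are descriptions.

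**Figure D2:**
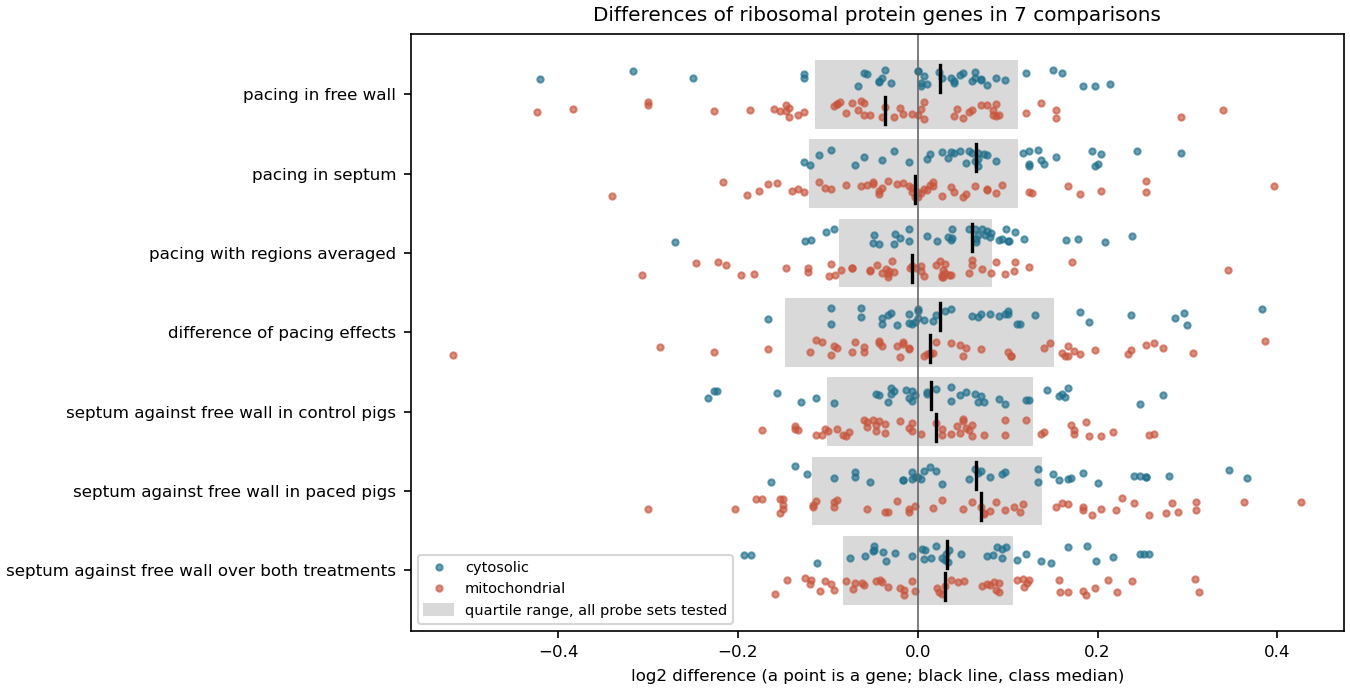
Log2 difference of every tested cytosolic (blue) and mitochondrial (red) ribosomal protein gene in each of the 7 comparisons, with a black line at the class median and a grey box for the quartile range of all probe sets tested. Class medians stay between -0.04 and 0.07 and most genes lie between -0.4 and 0.4.

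With the regions averaged, each septum array was averaged with the free wall array of its treatment and number, which left 3 paced against 3 control values. No label shows that same-numbered arrays come from the same pig, so an average may mix pigs. The SEs, p-values and intervals of this comparison treat the averages as independent. No member passed (limma adjusted p under 0.05, against 0.00484% of all probe sets). Cytosolic genes were above 0 for 27 of 40 with a median of 0.06 (0.037 without the control arrays numbered 1), and mitochondrial genes for 25 of 53 with a median of -0.01. At an unadjusted p under 0.05 there was 1 mitochondrial gene on the higher side, against 2.6% of all probe sets, and there were 2 on the lower side, against 2.95%, with no cytosolic gene on either. The averaged values of the treatments did not overlap for 10 cytosolic and 2 mitochondrial genes on the higher side, against 4.97%, and for 1 cytosolic and 4 mitochondrial genes on the lower side, against 5.52%.

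MRPS31, a small-subunit protein of the mitochondrial ribosome, was the only member whose 6 paced arrays all lay below its 6 control arrays, which 0.285% of all probe sets did. It read 7.41, 7.36 and 7.29 in septum paced arrays and 7.50, 7.58 and 7.55 in septum control arrays. In the free wall it read 7.27, 6.72 and 7.22 in paced arrays and 7.45, 7.52 and 7.51 in control arrays. Septum paced array 1 and free wall control array 1 were the nearest to each other across treatments, 7.41 and 7.45, and free wall paced array 2 was the lowest of all. The difference was -0.31 with regions averaged (SE 0.10, 95% interval -0.54 to -0.07, limma adjusted p = 0.868), -0.42 in the free wall (SE 0.14) and -0.19 in the septum (SE 0.14). Without free wall paced array 2 the free wall difference was -0.25. No member had all 6 paced arrays above all 6 control arrays, which 0.232% of all probe sets did. Arrays of both regions may come from the same pigs, so 6 arrays are not 6 independent animals.

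For every other member the 6 paced arrays overlapped the 6 control arrays. MRPL2 had a difference of 0.345 with regions averaged (SE 0.13, limma adjusted p = 0.868), and 0.42 without the arrays numbered 2 of paced pigs. MRPS18A had -0.25 (SE 0.10). RPL10A had 0.21 (SE 0.09), with free wall values of 8.13, 8.37 and 8.22 in paced arrays and 8.02, 7.94 and 8.12 in control arrays. In each region the paced RPL10A arrays lay above the control arrays, but septum control array 3, at 8.19, lay above free wall paced array 1, at 8.13. RPS29 had 0.18 (SE 0.09) and RPL12, of the base of the ribosomal stalk, had 0.165 (SE 0.09). RPL3, a large-subunit protein that reaches towards the peptidyl transferase centre, had -0.10 (SE 0.11), and RPS27L, a paralogue of RPS27 induced by p53 in human cells, had -0.12 (SE 0.09).

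**Figure D3:**
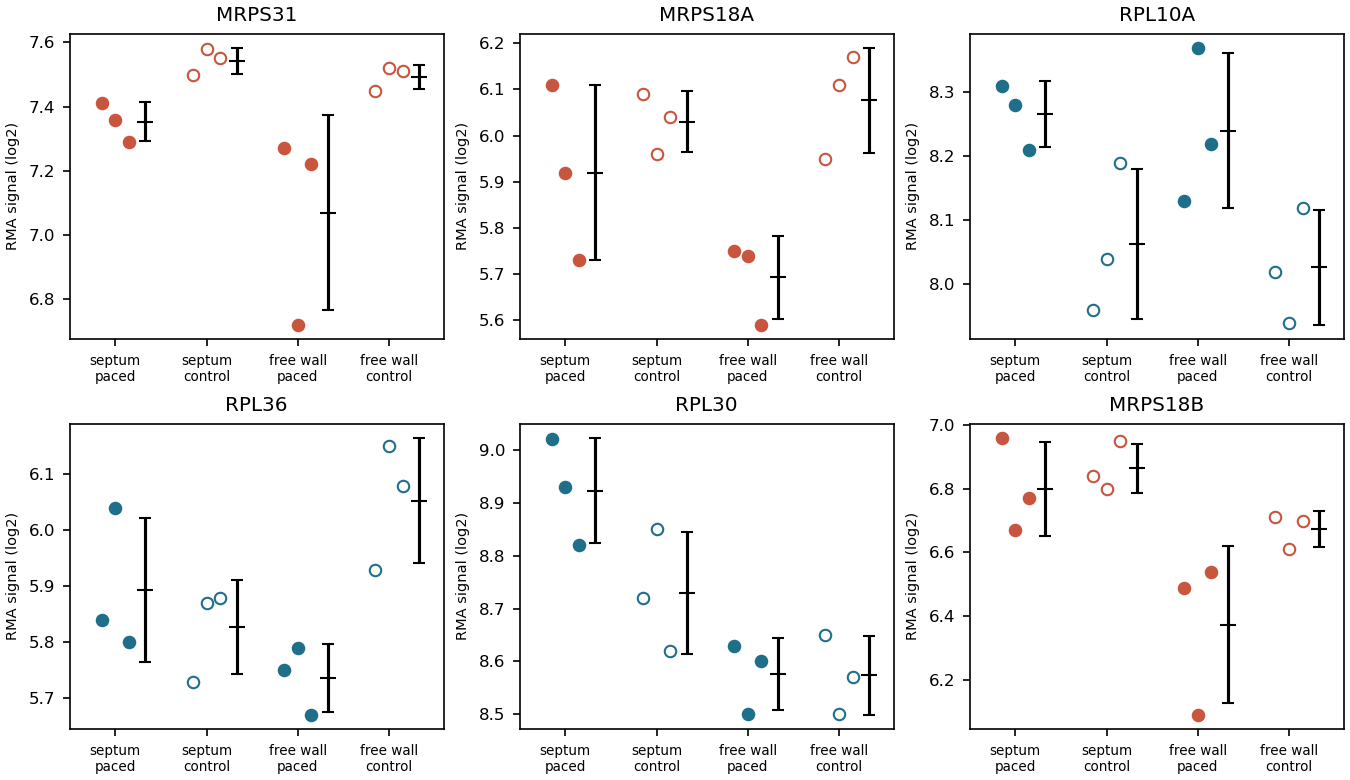
RMA signal (log2) by array for MRPS31, MRPS18A, RPL10A, RPL36, RPL30 and MRPS18B in septum paced, septum control, free wall paced and free wall control arrays (filled points paced, open points control, black dash and bar mean ± SD, n = 3). The axes do not start at 0, and in the MRPS31 panel all 6 paced arrays lie below 7.45, the lowest control array.

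The 95% intervals bound what was not called. With regions averaged, 38 of 40 cytosolic and 51 of 53 mitochondrial genes had an interval inside a 1.5-fold change in either direction, against 87.7% of all probe sets. The exceptions were RPL13A, RPL31, MRPL2 and MRPL49. In the free wall alone the counts were 38 and 46, against 68.1% of all probe sets, and in the septum alone 38 and 50, against 67.2%. For RPL4 the interval ran from -0.12 to 0.25, and for RPL13A from -0.36 to 0.83, so a 1.5-fold difference of RPL13A was within the error.

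**Figure D4:**
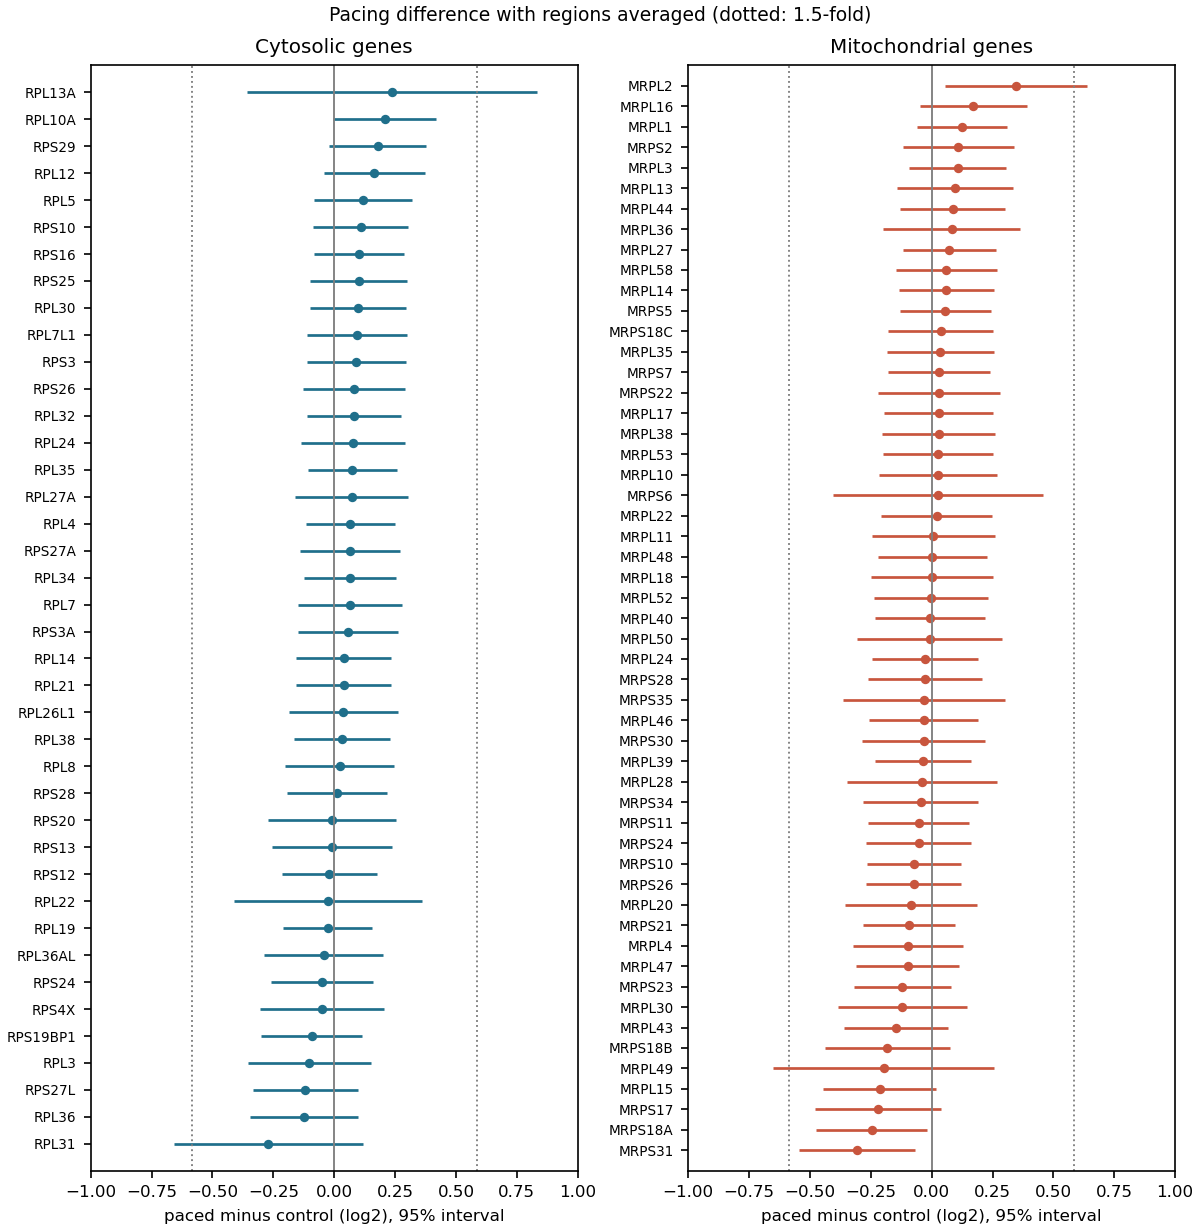
Paced minus control log2 difference with regions averaged for each tested cytosolic and mitochondrial ribosomal protein gene, with its 95% limma interval; dotted lines mark a 1.5-fold change. The intervals of RPL13A, RPL31, MRPL2 and MRPL49 cross a dotted line, and those of the other 89 genes do not.

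The difference between the pacing effects, septum minus free wall, tested whether pacing acted unequally on the regions. No probe set on the array passed (0% at limma adjusted p under 0.05), so neither did a member. Cytosolic genes had a median of 0.025 with 23 of 40 above 0, and mitochondrial genes a median of 0.01 with 30 of 53 above 0. Leaving out 1 array moved the cytosolic median between -8.333e-04 and 0.0633 and the mitochondrial median between -0.025 and 0.075. The median of all probe sets was 0.01, and relative to it 22 cytosolic genes lay above and 18 below, and 28 mitochondrial genes above and 24 below. Shifting each array to its own 75th percentile moved the median of all probe sets to -0.05. It moves all genes alike, so it cannot change these relative counts. After a second quantile normalization they were 25 above and 15 below for cytosolic genes, and 23 above and 30 below for mitochondrial genes. At an unadjusted p under 0.05, 1 cytosolic and 1 mitochondrial gene were on the higher side, against 1.43% of all probe sets, and 1 mitochondrial gene was on the lower side, against 1.32%.

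The 3 were RPL36, MRPL58 and MRPL36. RPL36 read 5.84, 6.04 and 5.80 in septum paced arrays and 5.73, 5.87 and 5.88 in septum control arrays, groups that overlap, whereas its free wall groups given above did not. Its difference of effects was 0.38 (SE 0.16). That of MRPL58 was 0.39 (SE 0.15). In the free wall MRPL58 read 5.73, 5.79 and 5.75 in paced arrays and 6.02, 5.81 and 5.84 in control arrays, so the paced arrays were lower there and higher in the septum. MRPL36 had -0.52 (SE 0.23) at signals of 2.93 to 3.75, near the limit for testing, and its highest value came from free wall paced array 2, without which the difference was -0.33.

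The regions were then compared within each treatment. In control pigs the classes were balanced, with 22 of 40 cytosolic genes above 0 in the septum relative to the free wall (median 0.015) and 28 of 53 mitochondrial genes (median 0.02), against a median of 0.01 over all probe sets. None was called (0% of all probe sets at limma adjusted p under 0.05). At an unadjusted p under 0.05 no member was higher, against 2.12% of all probe sets, and 1 cytosolic gene was lower, against 1.55%. The regions did not overlap for 2 cytosolic and 5 mitochondrial genes on the higher side, against 7.34%, and for 5 and 2 on the lower side, against 5.77%.

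The lower gene was RPL35, a protein near the exit tunnel of the large subunit. It read 8.88, 8.88 and 8.91 in septum control arrays and 9.11, 9.21 and 9.05 in free wall control arrays. The septal values were tight and all lower, and the difference was -0.23 (SE 0.09). In paced pigs it read 9.01, 9.05 and 8.98 in septum arrays and 9.16, 9.08 and 9.21 in free wall arrays, again without overlap, with a difference of -0.14 (SE 0.09). RPL7L1, a relative of RPL7, had -0.22 (SE 0.11) in control pigs and -0.16 (SE 0.11) in paced pigs, or -0.255 without free wall paced array 2.

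In paced pigs more members of each class stood higher than lower in the septum relative to the free wall. A contrast of these counts with those of control pigs is the difference of pacing effects given above, in which no probe set passed. Cytosolic genes were above 0 for 27 of 40 (median 0.065) and mitochondrial genes for 31 of 53 (median 0.07), against a median of 0.0067 over all probe sets. With each array shifted to its 75th percentile the medians were 0.01 and 0.02, and the median of all probe sets was -0.05. Such a shift moves all genes alike, so it cannot change a class median relative to that of all probe sets. That relative median was 0.06 in each class, and after a second quantile normalization it was 0.045 for cytosolic and 0.031 for mitochondrial genes. Leaving out septum paced array 2 gave medians of 0.03 in both classes, leaving out septum paced array 3 gave 0.09 and 0.11, and leaving out free wall paced array 2 gave 0.07 and 0.045. None was called (0% of all probe sets at limma adjusted p under 0.05). At an unadjusted p under 0.05, 3 cytosolic and 4 mitochondrial genes were higher, against 4.3% of all probe sets, and none was lower, against 2.43%. The regions did not overlap for 10 of 40 cytosolic and 7 of 53 mitochondrial genes on the higher side, against 6.44%, and for 1 cytosolic gene, RPL35, on the lower side, against 3.47%. Marker genes were also above 0 in the septum of paced pigs for 7 of 8 macrophage and monocyte (median 0.23), 5 of 5 endothelial (0.18), 4 of 5 smooth muscle and pericyte (0.16) and 4 of 4 atrial genes (0.49), and in control pigs for 1, 3, 2 and 2 of them. The other lists had 5 of 9 cardiomyocyte (median 0.03), 3 of 7 fibroblast (-0.18), 2 of 5 lymphocyte (-0.02) and 0 of 2 adipocyte genes (-0.18) above 0 in paced pigs. In control pigs these counts were 8, 2, 3 and 2. The part of the marker genes in this shift was not tested.

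RPL30, a small protein of the large subunit, had the smallest p among them. It read 9.02, 8.93 and 8.82 in septum paced arrays and 8.63, 8.5 and 8.60 in free wall paced arrays, while it read 8.72, 8.85 and 8.62 in septum control arrays and 8.65, 8.5 and 8.57 in free wall control arrays. The septal arrays lay above those of the free wall in paced pigs and overlapped them in control pigs. The region difference was 0.35 in paced pigs (SE 0.11, limma adjusted p = 0.568) and 0.16 in control pigs (SE 0.11).

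MRPS18B, of the mitochondrial small subunit, read 6.96, 6.67 and 6.77 in septum paced arrays and 6.49, 6.09 and 6.54 in free wall paced arrays. In control pigs it read 6.84, 6.80 and 6.95 in septum arrays and 6.71, 6.61 and 6.70 in free wall arrays. The septum lay above the free wall without overlap in both treatments. The difference was 0.43 in paced pigs (SE 0.13, limma adjusted p = 0.577), and 0.285 without free wall paced array 2. RPS25 had 0.28 (SE 0.10), MRPL58 had 0.31 (SE 0.10), MRPL4 had 0.28 (SE 0.11) and RPL8 had 0.25 (SE 0.11) in paced pigs.

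Over both treatments, 28 of 40 cytosolic and 30 of 53 mitochondrial genes were above 0 in the septum relative to the free wall, with medians of 0.0325 and 0.03. Over all probe sets tested 53.3% were above 0, with a median of 0.012. Relative to that median 25 cytosolic and 30 mitochondrial genes lay above, and the class medians were 0.021 and 0.018. No member was called, against 0.00968% of all probe sets (limma adjusted p under 0.05). At an unadjusted p under 0.05, 4 cytosolic and 6 mitochondrial genes were higher, against 4.79% of all probe sets, and 2 cytosolic genes were lower, against 3.04%. The higher ones were RPL30 at 0.25 (SE 0.08, limma adjusted p = 0.434), RPL26L1, RPS13, RPL8, MRPS18B at 0.31 (SE 0.09, limma adjusted p = 0.451), MRPL28, MRPL52, MRPS2, MRPL4 and MRPS7. The lower ones were RPL35 at -0.185 (SE 0.07) and RPL7L1 at -0.19 (SE 0.08). The interval lay inside a 1.5-fold change for 38 of 40 cytosolic and 52 of 53 mitochondrial genes, against 87.8% of all probe sets.

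The class means by array show where these balances arose. The cytosolic genes deviated from their own 12-array means by 0.06 ± 0.05 in septum paced arrays and -0.01 ± 0.04 in septum control arrays, and by -0.02 ± 0.02 in free wall paced arrays and -0.03 ± 0.05 in free wall control arrays (log2, 40 genes; SD, n = 3). The mitochondrial genes deviated by 0.02 ± 0.09 in septum paced arrays and 0.02 ± 0.0010 in septum control arrays, and by -0.04 ± 0.05 in free wall paced arrays and -0.0020 ± 0.04 in free wall control arrays (53 genes). Septum paced array 2 was the highest for both classes, at 0.10 each, with 35 of 40 cytosolic and 37 of 53 mitochondrial genes above their own mean. Septum paced array 3 was the lowest for mitochondrial genes, at -0.08 with 14 of 53 above their mean, and stood at 0.0049 for cytosolic genes. The cytosolic means of the septum paced arrays lay just above those of the free wall paced arrays, 0.0049 being the lowest of one and 0.0032 the highest of the other. All other pairs of groups compared here overlapped in both classes. The values 0.0049 and 0.0032 came from array 3 of each group. Over all probe sets tested, septum paced array 3 deviated by 0.018 and free wall paced array 3 by -0.0036. That gap is wider than the one between the cytosolic means, so a separation beyond that of all probe sets is not shown.

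**Figure D5:**
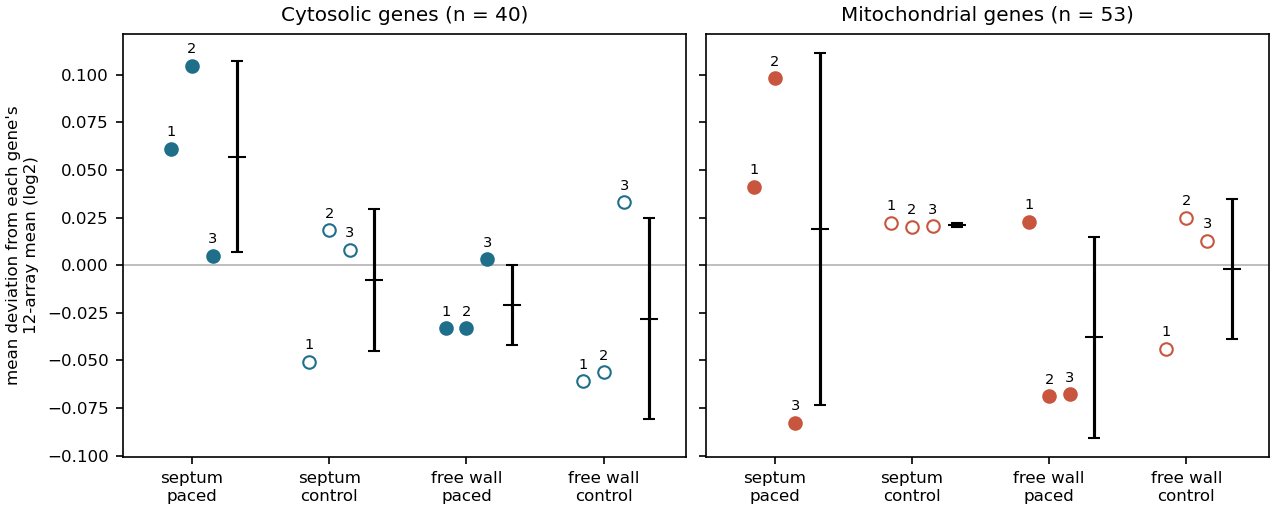
Mean log2 deviation of the 40 cytosolic (left) and 53 mitochondrial (right) ribosomal protein genes from each gene's own 12-array mean, by array in septum paced, septum control, free wall paced and free wall control groups (numbers are array numbers, dash and bar mean ± SD, n = 3). Septum paced array 2 is highest in both panels, and the mitochondrial values of septum paced arrays run between -0.08 and 0.10.

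Genes that serve the ribosome were examined beside its proteins, and none was called in any of the 7 comparisons. Of 67 ribosome biogenesis genes 42 were tested. In the free wall 9 lay above and 33 below 0 in paced pigs (median -0.08), and in the septum 26 lay above and 15 below (median 0.04). Without free wall paced array 2, 17 lay above and 25 below 0 in the free wall. NOP2, a nucleolar methyltransferase of ribosomal RNA, had a free wall difference of -0.38 (SE 0.11), and RIOK1, a kinase of small-subunit maturation, had -0.45 (SE 0.15). The difference of effects, septum minus free wall, lay above 0 for 38 of 42 (median 0.105), for 31 with the 75th percentile scaling, which moved the median of all probe sets to -0.05, and for 27 without free wall paced array 2.

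Of 41 cytosolic translation factors 28 were tested, and 21 lay above and 7 below 0 with regions averaged (median 0.03). EIF4A1, an RNA helicase of initiation, had -0.20 (SE 0.10) and EEF1D, of the elongation factor 1 complex, had 0.20 (SE 0.10). The 21 mitochondrial translation and ribosome assembly factors tested of 34 split into 10 above and 11 below 0, and the 8 mitochondrial transcription and biogenesis regulators tested of 14 into 3 and 5. In that list PPARA, a nuclear receptor of fatty acid oxidation, had -0.46 (SE 0.15) and GABPB1, a subunit of nuclear respiratory factor GABP, had 0.305 (SE 0.11). The growth signalling genes tested numbered 16 of 21, with 6 above and 10 below 0, and TSC1, a brake on mTOR, had -0.26 (SE 0.09). Of ribosomal proteins outside the symbol rule 6 of 12 were tested, 2 above and 4 below 0, and RPLP2, of the acidic stalk, had a septum difference of 0.43 (SE 0.15, limma adjusted p = 0.992).

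With regions averaged, the marker lists lay above 0 in paced pigs for 7 of 7 fibroblast, 6 of 9 cardiomyocyte, 4 of 5 endothelial, 5 of 5 smooth muscle and pericyte, 1 of 8 macrophage and monocyte, 3 of 5 lymphocyte, 1 of 2 adipocyte and 1 of 4 atrial genes, with 0 called. Their part in the ribosomal protein differences was not tested.

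Several probe sets of a gene gave a check on the members. Of the 14 genes with more than 1 probe set, 7 had a further probe set with the same 12 values as the one used, and they add no measurement. Among all probe sets on the array 1239, or 4.50%, shared all 12 values with another. Of the 8 further probe sets with values of their own 6 were tested. RPL36AL, a relative of RPL36A, had the farthest apart pacing differences with regions averaged among the 6. The probe set used gave differences of -0.04 with regions averaged (SE 0.11), 0.04 in the free wall and -0.13 in the septum, while another gave -0.41 (SE 0.15, limma adjusted p = 0.868), -0.42 and -0.40. That other probe set read 8.46, 8.87 and 8.27 in septum paced arrays and 8.86, 9.10 and 8.84 in septum control arrays, then 8.60, 8.52 and 8.05 in free wall paced arrays and 8.78, 8.92 and 8.73 in free wall control arrays. The paced arrays lay below the control arrays in the free wall and overlapped them in the septum. The probe sets of RPS3 and RPS3A had pacing differences with regions averaged of 0.09 and 0.06 for the ones used and 0.135 and 0.05 for the others. Signs were opposite in at least 1 comparison for RPL36AL, RPS16, RPS3A, MRPS23 and RPL19. RPS16 had 0.15 for the probe set used and -0.0067 (SE 0.22) for the other in the free wall, and RPL19 had 0.03 and -0.15 (SE 0.18) for the regions over both treatments. The other RPS16 probe set read 6.99, 6.48 and 6.82 in free wall paced arrays and 6.80, 6.85 and 6.66 in free wall control arrays. The value of 6.48 came from free wall paced array 2, and the opposite sign of RPS16 in the free wall rests on that array.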

How the data were processed

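Per the labels, Trizol was used to extract total RNA, which was measured as biotinylated target on Affymetrix arrays. Per the submitters' processing notes, the authors used Affymetrix Expression Console 1.4 and RMA, which corrects background, quantile-normalizes arrays and summarizes the probes of a probe set; the deposited values are log2 signals, to 2 decimals. The array's genome build is not given in the sources used here, and the number of arrays limits the precision.

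Of 27558 probe sets, 13323 had 1 gene symbol in the platform annotation, 357 had several and 13878 had none listed; 9 with several symbols that include a member's were left out. Symbols were checked against RefSeq names through gene identifiers. RefSeq lists 157 symbols that fit the rule, of which 94 are members. Without a gene's own detection call, the lowest 25% of probe sets by mean were left out of the tests.

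Differences were tested with limma 3.58.1 in R 4.3.3 (lmFit and eBayes) with 1 mean per group over all 12 arrays. The arrays were entered as independent, though septum and free wall arrays may come from the same pigs. The SEs, p-values and intervals of the region comparisons and of the difference of effects carry that limit. There were 8 residual and 3.68 prior degrees of freedom, or 4 and 3.82 with regions averaged. P-values were adjusted by Benjamini-Hochberg over all 20668 probe sets tested, and a gene was called at an adjusted p under 0.05. The fit was run on simulated data with independent arrays and added changes larger than the differences of the members. It therefore gives no measure for arrays that share a pig or for smaller differences. Intervals are 95% and not adjusted. Figures were drawn with matplotlib 3.10.9.

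The members, the gene lists and the tests were chosen with earlier results of these data known. In each comparison and class the text names the 4 genes with the smallest p in each direction or some of them, with RPL3 and RPS27L, and the 2 genes with the smallest p of a list or some of them; MRPL4 and MRPS7 over both treatments, and genes named for their level, spread, probe sets or array order were chosen after their values were seen. Same-numbered arrays of both regions had correlations of 0.318, 0.252 and 0.245 in control pigs and of 0.0891, -0.173 and -0.181 in paced pigs. Without the correlations of differently numbered arrays beside them, these values cannot show whether the numbers pair arrays of the same pig. The replicate number as a block, other scalings, filters and spreads, and leaving out each array were tried as alternatives.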

Additional observations from a re-analysis of the deposited data

How the results depend on the processing

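No member was called under any alternative in any of the 7 comparisons, and the smallest limma adjusted p of a member over all alternatives was 0.154. The class medians mostly stayed within the spread between arrays. Those that moved more were the cytosolic median of pacing in the septum without septum control array 1 (0.025), the difference of effects with the 75th percentile scaling (-0.0342 cytosolic and -0.0458 mitochondrial), the mitochondrial difference of effects without septum paced array 3 (0.075), and the cytosolic region median in paced pigs with the 75th percentile scaling (0.0125). Leaving out 1 array moved the cytosolic medians between 0.025 and 0.0975 for the septal pacing difference, between -8.333e-04 and 0.0633 for the difference of effects and between 0.0342 and 0.0933 for the regions in paced pigs. For mitochondrial genes in the difference of effects it moved the median between -0.025 and 0.075. The split of mitochondrial genes for pacing in the septum was 17 above and 36 below 0 with the 75th percentile scaling or a second quantile normalization, and 31 and 21 with arrays centred on their medians. Centring and the 75th percentile scaling move all genes alike, and relative to the median of all probe sets (0.02 and -0.036) the split stayed at 26 above and 26 below under both, while it was 17 and 36 after the second quantile normalization. In the difference of effects the median of all probe sets was -0.049 with the 75th percentile scaling. Relative to it the cytosolic and mitochondrial medians were 0.015 and 0.0033, which such a shift cannot change. After the second quantile normalization these relative medians were 0.022 and -0.025, with 23 mitochondrial genes above and 30 below.

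The replicate number as a block changed no call of a member, with 0 called in each comparison. The numbers are balanced over the groups, so the block cannot move a log2 difference. The class medians are therefore fixed under it (0.06 and -0.01 for pacing with regions averaged) and are no check. Across treatments the same-numbered arrays had correlations of -0.199, -0.143 and 0.0397 in the free wall and 0.0127, 0.0903 and 0.217 in the septum. With the block, 1 probe set of the whole table was called in the septum, against 2 without it.

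Of 2544 values of named members under the alternatives, 2530 kept their sign and 14 did not. Other filters, the block, the other estimate of the spread, a fit to only the groups compared and arrays entered singly leave each difference unchanged. So does leaving out an array of a group outside the comparison, or averaging the probe sets of a gene that has only 1. No sign could change under these, so the count of signs kept is not a measure of robustness. Of the 14 values, 12 came from leaving out 1 array. RPL31 then ranged between -0.72 and 0.047 for pacing in the free wall, above 0 only without free wall paced array 2. RPS24 ranged between -0.15 and 0.005 for pacing in the septum and over the same span for the difference of effects, above 0 only without septum paced array 3. RPL3 ranged between -0.01 and 0.1 for pacing in the septum and between -0.027 and 0.081 for the regions over both treatments. RPS27L ranged between -0.062 and 0.088 for the difference of effects, between -0.095 and 0.055 for the regions in paced pigs and between -0.064 and 0.011 over both treatments. The other two were RPS27L at -0.0425 with the 75th percentile scaling and RPS16 at 0.037 as the mean over its probe sets, both in the difference of effects. The cause was not tested. Probe sets called in the whole table ranged over 0 to 2 for pacing in the free wall, 1 to 4 in the septum, 0 to 4 with regions averaged, 0 to 7 for the regions in paced pigs and 0 to 4 over both treatments.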

Other observations

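Probe sets that carry several symbols, 1 of them of the family, were not used above. Their 12-array means were 11.18 for the probe set of RPS15A, 8.5 for RPL23A, 8.08 for RPS23, 7.81 for RPS19, 7.75 for RPS27, 7.14 for RPS18, 6.97 for RPL35A, 5.95 for the probe set shared by TPD52 and MRPS28, and 3.78 for the probe set of RPL10 and RPL10L (log2 RMA signal). Which gene each of them measures was not tested.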
